A study of Mus musculus with 6 samples.

Results

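The genes described here are the expressed solute carriers of thymic NKT1 cells: every gene of the deposited count table whose symbol starts with Slc and a number and whose level, averaged over all 6 libraries, was at least 1 CPM (a gene's count relative to its library total, scaled to 1000000). Among 47643 genes in all, 377 have such a symbol, and 167 of these met the level. The rule used the level over both groups together and not the difference between them. Invariant natural killer T (iNKT) cells recognise lipids bound to CD1d through a T cell receptor that hardly varies, and NKT1 is their subset marked by the transcription factor T-bet. The cells were sorted from wild-type (WT) BALB/c thymus by the CD4 coreceptor, with 3 libraries of CD4-positive and 3 of CD4-negative cells. The labels name no treatment and give neither the age of the mice nor whether replicates are separate animals. The spread that the p-values are set against may therefore be partly technical. The comparison asks whether NKT1 cells with and without CD4 differ in the transcripts of their membrane carriers.

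Solute carriers are membrane proteins that move sugars, amino acids, nucleosides, ions and vitamins across the plasma membrane and organelle membranes, by facilitated diffusion, exchange or coupling to an ion gradient. T cells raise their uptake of glucose and glutamine when activated, through carriers such as GLUT1 (Slc2a1) and ASCT2 (Slc1a5), and the mitochondrial carriers of the SLC25 family link the cytosol to the matrix. The 167 genes were grouped by family, but SLC5 and SLC43 were split by gene, with the inositol carrier Slc5a11 under sugar and Slc5a3 under other carriers. This gave 11 sugar carriers, 16 amino acid carriers, 27 nucleoside and nucleotide sugar carriers, 42 ion and metal carriers, 36 genes of the SLC25 family and 30 other carriers. The remaining 5 carry such a symbol without being carriers: Slc9a3r1 and Slc9a3r2 are scaffold proteins, Slc4a1ap and Slc7a6os are named after a partner or a neighbouring gene, and Slc2a4rg-ps is a pseudogene.

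The libraries held 40480468 to 53145898 estimated counts. Cd4 itself stood at 453 ± 53.7 CPM (SD, n = 3) in the CD4-positive and 22.7 ± 16.2 CPM (SD, n = 3) in the CD4-negative libraries, an edgeR log2 difference of 4.32 with an adjusted p of 0.0330. Leaving out each library in turn kept that difference at 3.99 to 5.08, with adjusted p of 0.00298 without CD4-negative replicate 3 and 0.0641 to 0.212 in the other 5 fits. CD4-positive replicate 1 and CD4-negative replicate 3 had 1.35% and 1.33% of their counts on mitochondrial genes, against 3.51% to 5.19% in the other 4. CD4-negative replicate 3 stood apart on the first principal component of all genes, and both replicate 3 libraries are named by a scheme of their own. Transcripts of 4 Y-linked genes gave 466 and 523 counts in the replicate 1 libraries and at most 1 count in any other. The replicate 1 libraries thus held RNA of male cells that the others lacked, so replicates of a group were not all from a single source. Summed markers of T and iNKT cells (10 genes) reached 5519 to 6233 CPM in the CD4-positive and 5249 to 6387 CPM in the CD4-negative libraries. Of the 10, 2 did not overlap, against 9.41% of all tested genes, and both were higher in CD4-positive cells. Zbtb16 stood at 151, 98.1 and 70.2 against 60.0, 63.7 and 62.0 CPM (log2 difference 0.78, edgeR adjusted p 0.804), and Trac had a log2 difference of 0.09. B cell markers summed to at most 0.226 CPM, with Pax5 at 0 in every library. Markers of NK cells and innate lymphoid cells (5 genes) summed to 71.9 to 89.7 against 183 to 192 CPM, nearly all from Ncr1, Eomes and Klre1. Globin and other erythroid markers (7 genes) summed to 276 to 367 against 283 to 701 CPM, and immature thymocyte markers (7 genes) to 35.2 to 147 against 55.4 to 221 CPM, both highest in CD4-negative replicate 3. NKT2 markers (4 genes) summed to 131 to 193 against 128 to 142 CPM, most of it Gata3, which overlapped (log2 difference -0.03). The other 3 were higher in CD4-positive cells without overlap, against 4.84% of all tested genes. Ccr4 passed the test (log2 difference 2.90, edgeR adjusted p 0.0214, but 0.0616 to 0.180 in 5 of the 6 fits that leave out 1 library). Il4 (log2 difference 1.87, edgeR adjusted p 0.201) and Il17rb (3.12, adjusted p 0.955) did not pass, both at low levels. NKT17 markers (5 genes) summed to 0.945 to 2.58 against 1.70 to 4.48 CPM. Myeloid and dendritic markers (7 genes) summed to 1.46 to 1.6 against 2.46 to 2.66 CPM. Stromal markers (7 genes) summed to 33.2 to 36.2 against 18.2 to 19.3 CPM, most of it Pecam1 (30.6 to 33.8 against 15.2 to 16.7 CPM). The other genes of that list overlapped or were near 0, and none exceeded 2.14 CPM (Epcam) in any library. The part of these cells in the results below was not tested, and in bulk RNA fewer cells of a type and less RNA per cell cannot be told apart.

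Levels of different genes were compared per length, as CPM divided by the gene's exon length and scaled to the same total in each library (the TPM scale). On it the 167 genes ran from 0.491 for Slc18a2, the vesicular monoamine carrier, to 550 for Slc25a5, the ADP/ATP exchanger ANT2, with a median of 9.98. After Slc25a5 the highest were the scaffold Slc9a3r1 (267), Slc3a2 (173), Slc25a4 (142), the choline transporter-like Slc44a2 (108) and the zinc carrier Slc39a7 (104). Slc25a5 had fractional counts in all 6 libraries, as arises where reads are divided between similar sequences, so its level is uncertain. In all, 34 of the 167 had a fractional count in at least 1 library. Exons of 43 overlapped exons of a gene on the opposite strand and those of 9 a gene on the same strand. The strand setting of the counting is not given in the sources used here. Whether reads of the opposite-strand pairs were kept apart is therefore not known, and strand cannot separate the same-strand pairs. Beside those pointed out below, the named genes Slc2a1, Slc37a2, Slc43a2, Slc38a10, Slc29a1, Slc35a4, Slc11a2, Slc4a1ap and Slc18a2 have such a partner on the opposite strand.

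**Figure D1:**
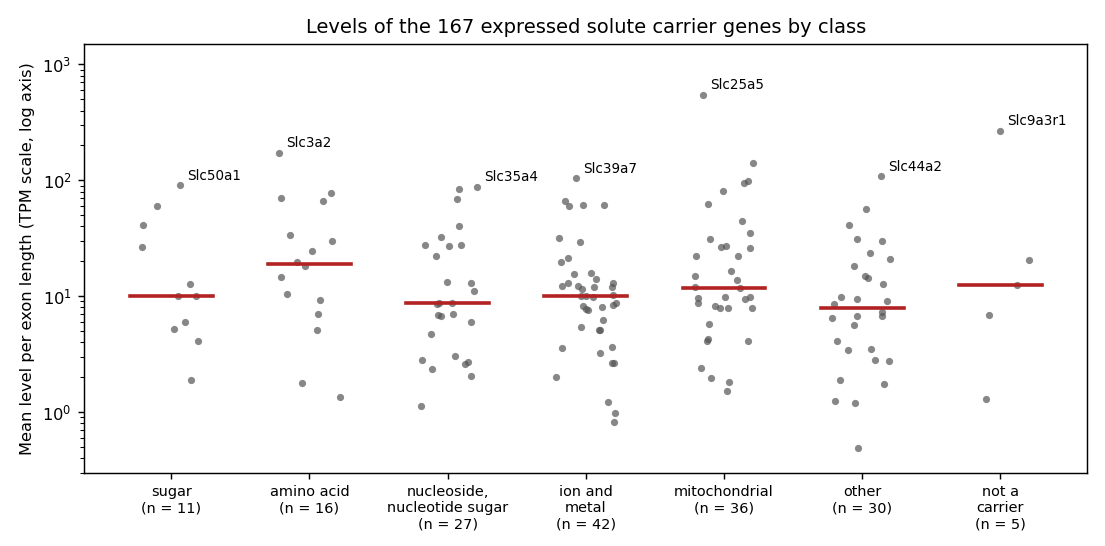
Mean level per exon length over all 6 libraries (TPM scale, log axis) of each of the 167 genes, 1 point per gene, by class; red bars are class medians. The levels run from 0.491 (Slc18a2) to 550 (Slc25a5), and the leading gene of each class is named.

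Expression was uneven between classes. The nucleoside and nucleotide sugar class had 27 of its 35 symbols expressed and the SLC25 family 36 of 47, while 16 of 67 amino acid, 11 of 28 sugar, 42 of 88 ion and metal and 30 of 100 other carriers reached 1 CPM. All members of the equilibrative nucleoside (SLC29, 4 genes), sugar phosphate (SLC37, 4 genes), magnesium (SLC41, 3 genes), copper (SLC31, 2 genes) and riboflavin carrier families (SLC52, 2 genes) in the table were expressed. Of the 210 symbols below the level, 113 had no count in any library. Among those chosen after their values were seen, the insulin-responsive glucose carrier Slc2a4, the intestinal sodium-glucose carrier Slc5a1 and the cationic amino acid carrier Slc7a2 had no count. The liver glucose carrier Slc2a2 averaged 0.0163 CPM, the cystine carrier Slc7a11 0.214 CPM, the iron exporter ferroportin (Slc40a1) 0.150 CPM and the red cell anion exchanger Slc4a1 0.0635 CPM. Just under the level lay Slc24a3 (0.977 CPM), Slc27a6 (0.957 CPM) and Slc7a8 (0.757 CPM), and just above it Slc18a2 (1.004 CPM), Slc35f5 (1.31 CPM) and Slc9a3r2 (1.34 CPM).

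All 167 genes passed the filter on low counts, 165 of them with a mean of at least 1 CPM in each group. The 2 exceptions were Slc18a2, which met the rule only through the CD4-negative libraries, and the proton-coupled folate carrier Slc46a1, which met it only through the CD4-positive ones. No expressed solute carrier passed edgeR's quasi-likelihood test with Benjamini-Hochberg adjustment over all 12760 tested genes, of which 27 (0.212%) passed. The smallest adjusted p among the carriers was 0.106, for the magnesium carrier Slc41a2. DESeq2 called that 1 carrier (adjusted p = 0.00566) against 0.886% of 18276 genes, and limma-voom called none. At an unadjusted p under 0.05 by edgeR stood 7 of 167 (4.19%), 3 higher and 4 lower in CD4-positive cells, against 4.44% of all tested genes. The groups did not overlap for 15 of 167 (8.98%), 7 higher and 8 lower in CD4-positive cells, against 9.41% of tested genes (4.84% higher and 4.57% lower). Both shares lay near the background, and both counts of higher genes include Slc46a1.

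The intervals put a bound on most differences. For 134 of 167 (80.2%) the 95% interval of the difference lay inside 2-fold in both directions, against 76.6% of the 10843 tested genes with a mean of at least 1 CPM. For the other 33 a 2-fold difference was within the interval. The fitted log2 differences (CD4-positive minus CD4-negative throughout) ran from -0.98 to 1.34 with a median of 0.06, against -0.01 over all tested genes. They were above 0 for 103 of 167 (61.7%), against 48.9% of tested genes. Summed over the 167, the level was 7152 ± 663 CPM (SD, n = 3) in CD4-positive and 6812 ± 267 CPM (SD, n = 3) in CD4-negative libraries, and the groups overlapped.

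**Figure D2:**
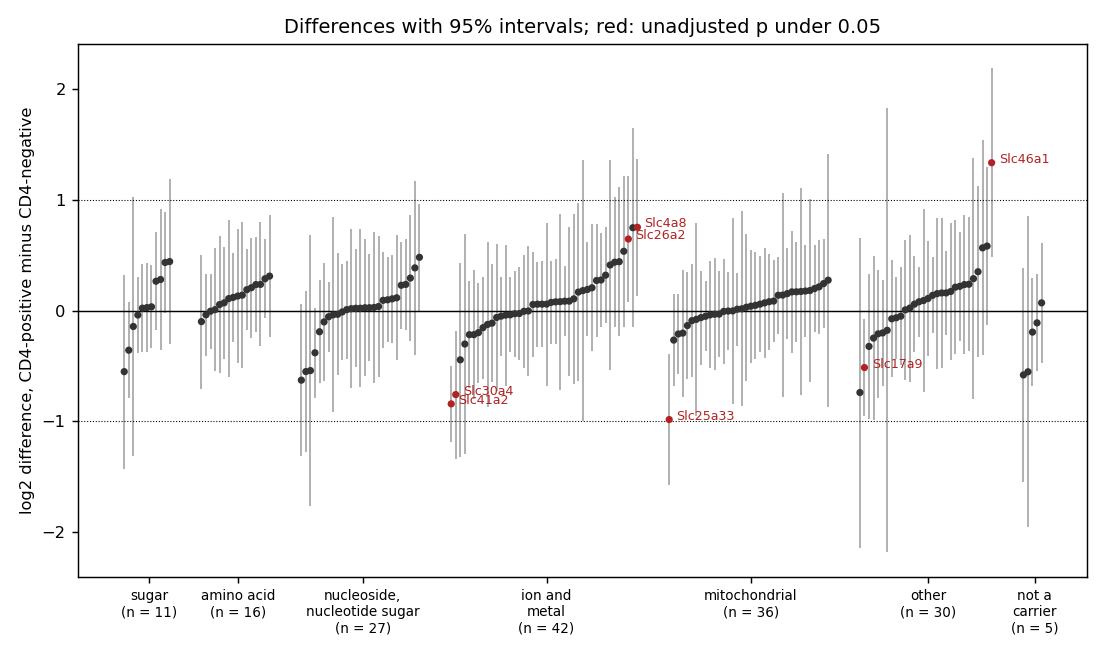
Log2 difference (CD4-positive minus CD4-negative) of each gene with its 95% interval, ordered within each class; dotted lines mark 2-fold and red points an unadjusted p under 0.05. The red points are 7 genes, 3 above and 4 below 0, and 134 of the 167 intervals lie between the dotted lines.

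Among sugar carriers the 3 highest per length were Slc50a1, a sugar carrier of the SWEET family (90.6 on the TPM scale), the glucose carrier GLUT1 (Slc2a1, 60.3) and the high-affinity glucose carrier GLUT3 (Slc2a3, 41.4). None of the 11 passed the test, and their median log2 difference was 0.03. Slc2a1 (chromosome 4, 119108711 to 119137983, GRCm38) stood at 66, 67.8 and 85.8 CPM in CD4-positive replicates 1 to 3 and at 82.3, 87.4 and 111 CPM in the CD4-negative ones. Only CD4-positive replicate 3 reached into the CD4-negative range, and the log2 difference was -0.36 (SE 0.19, 95% interval -0.79 to 0.08). Slc2a3 (chromosome 6, 122727809 to 122801640) stood at 103, 124 and 159 against 108, 110 and 103 CPM, so that CD4-positive replicates 2 and 3 were high and replicate 1 lay among the CD4-negative libraries. Its log2 difference was 0.27 (SE 0.19, interval -0.17 to 0.71).

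Slc37a2, a sugar phosphate carrier of the endoplasmic reticulum, was the sugar carrier without overlap, at 13.7, 10.4 and 12.8 against 8.0, 8.99 and 10.3 CPM, a log2 difference of 0.44 with an edgeR adjusted p of 1.0. The lowest CD4-positive library lay just above the highest CD4-negative one. At the other end, the inositol carrier Slc5a11 stood at 1.23, 1.45 and 2.35 against 1.79, 2.59 and 3.0 CPM, and the groups overlapped. Slc50a1 had a log2 difference of 0.02 (interval -0.37 to 0.42). For 8 of the 11 the interval lay inside 2-fold.

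Amino acid carriers showed the narrowest spread of differences. All 16 had an interval inside 2-fold, 13 lay above 0, and their median log2 difference was 0.13, the highest of the 7 groups. That median was 0.26 without CD4-positive replicate 1, and 0.068 to 0.26 over the fits that leave out 1 library. Highest per length were Slc3a2, the CD98 heavy chain that carries the large neutral amino acid carriers to the surface (173 on the TPM scale), the glutamine carrier ASCT2 (Slc1a5, 78.0) and Slc38a10 (70.1), with LAT1 (Slc7a5, 66.5), the light chain of CD98, next. Slc38a10 had fractional counts in 83.3% of the libraries, so its level is uncertain. Slc1a5 stood at 112, 131 and 156 against 120, 132 and 115 CPM, a log2 difference of 0.12 (SE 0.17, interval -0.28 to 0.52). Slc3a2 stood at 178, 311 and 260 against 194, 291 and 198 CPM, with replicate 2 highest in each group. Its log2 difference was 0.13 (SE 0.26). Slc7a5 stood at 103, 78.8 and 101 against 78.6, 82.6 and 142 CPM, with CD4-negative replicate 3 above all others. The log2 difference of Slc7a5 was -0.10 (SE 0.26).

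The sodium-coupled glutamine carrier SNAT1 (Slc38a1) stood at 206, 283 and 246 against 218, 229 and 176 CPM (log2 difference 0.24, SE 0.18). Its relative SNAT2 (Slc38a2), which is known to respond to amino acid supply, stood at 83.5, 119 and 124 against 120, 114 and 62.5 CPM (log2 difference 0.14, SE 0.28). In Slc38a2 the lowest library of each group was CD4-positive replicate 1 and CD4-negative replicate 3. Slc43a2, the neutral amino acid carrier LAT4, was the only amino acid carrier whose groups did not overlap, at 72.7, 61.7 and 56.4 against 53.0, 52.4 and 50.8 CPM (log2 difference 0.29, interval -0.07 to 0.65). The exchanger y+LAT2 (Slc7a6), which also pairs with Slc3a2, had a log2 difference of 0.31 with overlapping groups, and Slc38a10 one of -0.04. The aromatic amino acid carrier TAT1 (Slc16a10) counts among the other carriers by family. It stood at 90.1, 89.6 and 95.9 against 87.2, 81.7 and 91.6 CPM.

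**Figure D3:**
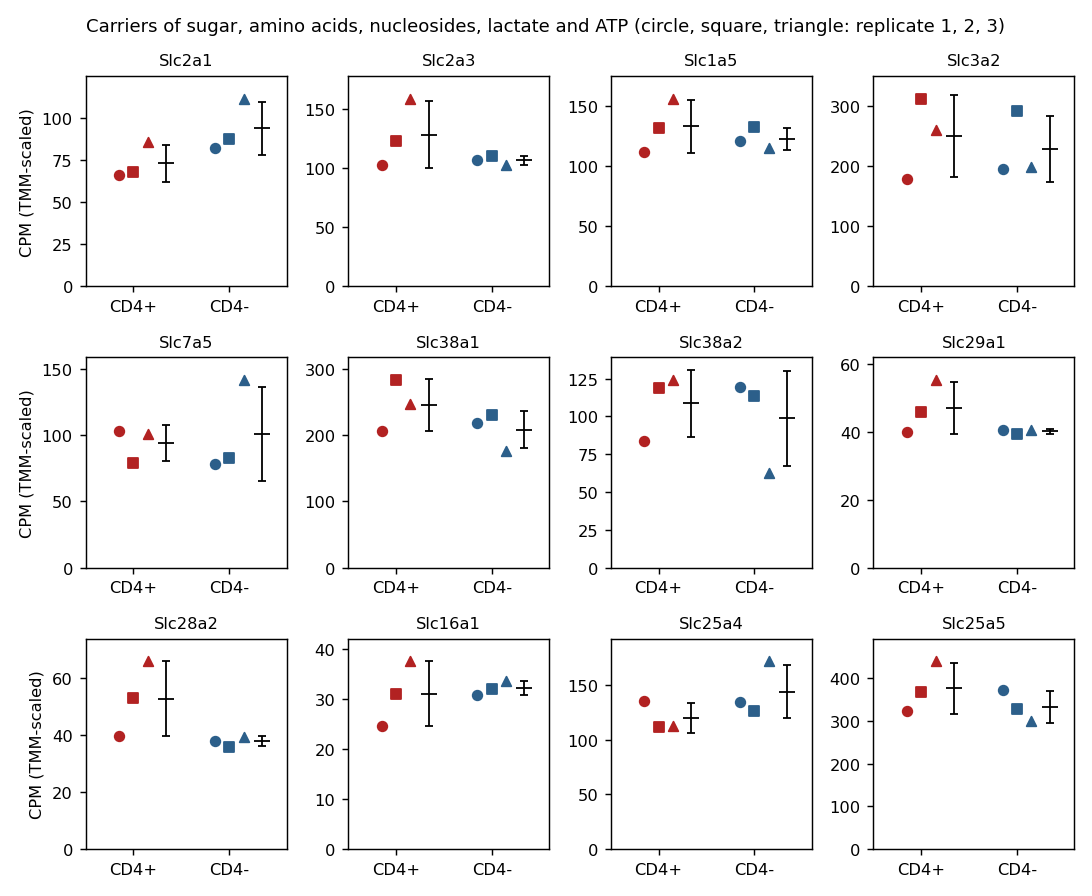
TMM-scaled CPM of 12 carriers of sugars, amino acids, nucleosides, lactate and ADP/ATP in each library (circle, square and triangle for replicates 1, 2 and 3), with mean and SD beside each group of 3. The groups overlap in every panel but Slc28a2, where CD4-positive replicate 1 (39.5 CPM) lies next to CD4-negative replicate 3 (39.4 CPM).

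None of the 27 nucleoside and nucleotide sugar carriers passed the test, and their median log2 difference was 0.02. Nucleotide sugar carriers bring activated sugars into the Golgi for glycosylation. Their family, SLC35, gave 21 of the 27 genes, but membership alone does not show that a gene carries a nucleotide sugar. Slc35a4 (87.9 on the TPM scale), the GDP-fucose carrier Slc35c1 (84.1) and Slc35e1 (69.5) were the highest per length. Slc35c1 stood at 108, 99.3 and 111 against 108, 108 and 114 CPM, with a log2 difference of -0.05 (SE 0.14, interval -0.37 to 0.26). Slc35a4 and Slc35e1 had log2 differences of -0.01 and 0.10.

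All 4 equilibrative nucleoside carriers were expressed, led by ENT1 (Slc29a1), at 39.8, 45.8 and 55.2 against 40.4, 39.3 and 40.4 CPM (log2 difference 0.23, interval -0.16 to 0.62). The concentrative carrier CNT2 (Slc28a2) takes up purine nucleosides with sodium. It stood at 39.5, 52.8 and 65.9 against 38, 35.8 and 39.4 CPM, a log2 difference of 0.48 (SE 0.21, interval just under 0 to 0.97). The groups were separated by CD4-positive replicates 2 and 3, while replicate 1 lay at the top of the CD4-negative range. Slc28a2 had fractional counts in all 6 libraries and is uncertain for that reason. In the other direction, the groups did not overlap for Slc35e3 (8.56, 8.98 and 7.44 against 10.6, 11.4 and 10.5 CPM, log2 difference -0.38) and, by a narrow gap, Slc35e4 (2.69, 2.1 and 2.55 against 4.84, 3.78 and 2.71 CPM, log2 difference -0.63). The smallest adjusted p in the class was 1.0.

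Of the 42 ion and metal carriers, the largest class, 4 (9.52%) had an unadjusted p under 0.05 by edgeR, against 4.44% of all tested genes. None passed with adjustment. Slc41a2 (chromosome 10, 83230848 to 83337882, minus strand) belongs to a family of magnesium carriers. It stood at 12.3, 13.7 and 12.3 CPM in the CD4-positive and 23.6, 22 and 23.0 CPM in the CD4-negative libraries. Every CD4-positive library lay far below every CD4-negative one, and the spread within each group was small beside the gap. The log2 difference was -0.84 (SE 0.15, interval -1.19 to -0.49), or 1.79-fold (1.41 to 2.28) higher in CD4-negative cells, with an edgeR adjusted p of 0.106. Leaving out each library in turn gave -0.89 to -0.81, with adjusted p of 0.131 to 0.536, and replicates 1 and 2 alone gave -0.81. Its 2 relatives overlapped: Slc41a1 stood at 16.7, 29.9 and 28.4 against 25.6, 28.3 and 12.8 CPM, and Slc41a3 at 6.60, 9.97 and 15.8 against 7.40, 7.83 and 4.02 CPM.

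The zinc exporter ZnT4 (Slc30a4, chromosome 2, 122681233 to 122702663) stood at 3.62, 3.74 and 5.40 against 8.33, 6.26 and 6.995 CPM, without overlap, with a log2 difference of -0.76 (SE 0.25) and an edgeR adjusted p of 0.727. An exon of Slc30a4 overlaps 4930417H01Rik on the opposite strand. The sodium-driven bicarbonate carrier Slc4a8 (chromosome 15, 100761747 to 100823968) stood at 6.85, 4.69 and 4.13 against 2.88, 3.24 and 3.16 CPM, also without overlap (log2 difference 0.75, SE 0.26, adjusted p 0.821). The sulfate carrier Slc26a2 stood at 33.3, 45.8 and 60.0 against 26.2, 27.9 and 34.7 CPM (log2 difference 0.65, SE 0.24, adjusted p 0.916), where CD4-positive replicate 1 lay below CD4-negative replicate 3. The cotransporters Slc12a2 (sodium, potassium and chloride) and Slc12a9 were the other ion carriers without overlap, with log2 differences of 0.54 and -0.20.

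Zinc carriers were the largest group of the class, with 11 of 14 ZIP (SLC39) importers and 6 of 10 ZnT (SLC30) exporters expressed. The 3 highest per length were the importers Slc39a7 of the endoplasmic reticulum (104 on the TPM scale), Slc39a6 (65.7) and Slc39a1 (61.3). Slc39a6 stood at 111, 109 and 104 against 98.7, 100 and 106 CPM (log2 difference 0.09, interval -0.23 to 0.40), and Slc39a7 had a log2 difference of 0.08. Slc39a7 shares exon sequence with Gm20427 on its own strand and had fractional counts in every library. Slc39a1 stood at 68.4, 45.3 and 56 against 46.5, 46.5 and 81.5 CPM, high in CD4-positive replicate 1 and CD4-negative replicate 3. The iron and manganese carrier DMT1 (Slc11a2) stood at 30.6, 41.6 and 50.02 against 43, 47.2 and 24.8 CPM, low in those same libraries. Over the 42 genes the median log2 difference was 0.06, and 30 had an interval inside 2-fold.

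**Figure D4:**
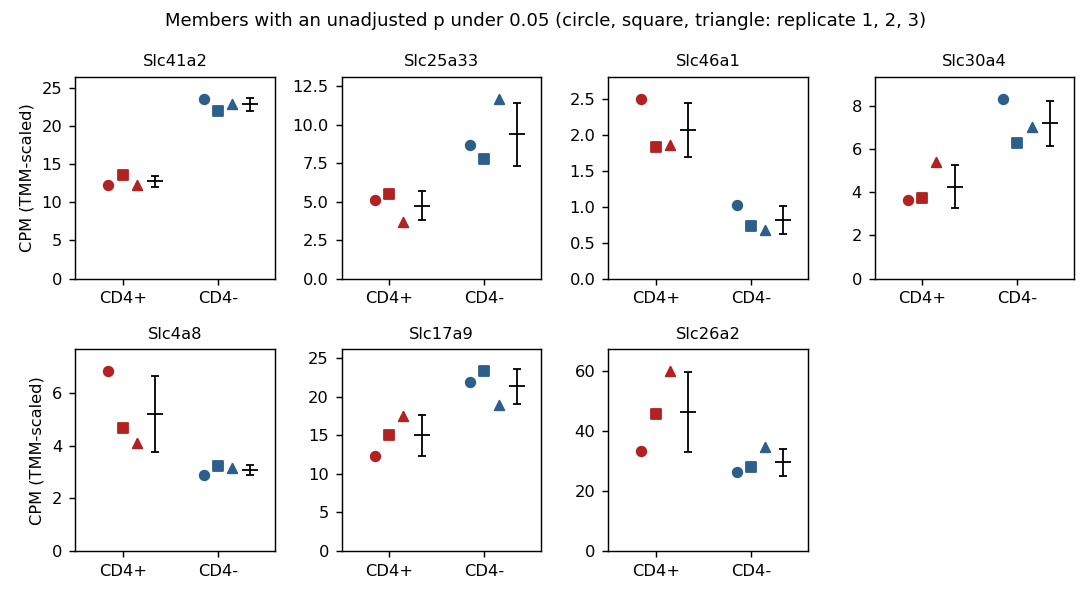
TMM-scaled CPM in each library of the 7 solute carriers with an unadjusted p under 0.05 (circle, square and triangle for replicates 1, 2 and 3), with mean and SD beside each group of 3. Slc41a2 lies at 12.3 to 13.7 CPM in CD4-positive and 22 to 23.6 CPM in CD4-negative libraries, and the groups overlap in Slc26a2 alone.

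The SLC25 family, whose members mostly sit in the inner mitochondrial membrane, held the most abundant carrier per length, Slc25a5. The ADP/ATP exchangers ANT2 (Slc25a5, 550 on the TPM scale) and ANT1 (Slc25a4, 142) were followed within the family by the oxoglutarate carrier Slc25a11 (98.4) and the phosphate carrier Slc25a3 (94.0). Slc25a5 stood at 322, 367 and 440 against 372, 327 and 299 CPM (log2 difference 0.18, interval -0.24 to 0.60). Slc25a4 stood at 136, 112 and 112 against 134, 126 and 172 CPM (log2 difference -0.27, interval -0.68 to 0.15). Slc25a3 varied least of these, at 193, 206 and 218 against 213, 203 and 194 CPM (log2 difference 0.01, interval -0.31 to 0.34). Slc25a11 had a log2 difference of 0.15 and fractional counts in 50% of the libraries, and its exons overlap those of Rnf167 on the opposite strand.

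The pyrimidine nucleotide carrier Slc25a33 (chromosome 4, 149744036 to 149774277) was the 1 gene of this family (2.78%) with an unadjusted p under 0.05 by edgeR, against 4.44% of all tested genes. It stood at 5.08, 5.49 and 3.66 against 8.71, 7.75 and 11.7 CPM without overlap, with a log2 difference of -0.98 (SE 0.25, interval -1.58 to -0.39) and an edgeR adjusted p of 0.414. Both replicate 3 libraries were the extremes, and with replicates 1 and 2 alone the log2 difference was -0.63. Slc25a33 overlaps Gm13068 on the opposite strand and had fractional counts in some libraries. The calcium-dependent ATP and phosphate carrier Slc25a24 was the only other member without overlap, at 67.5, 84.5 and 82.8 against 86.5, 96.4 and 88.7 CPM, a log2 difference of -0.21. On the higher side, the folate carrier Slc25a32 had a log2 difference of 0.25 and Slc25a45 one of 0.20, both with overlap. The family's median was 0.04, with 31 of 36 intervals inside 2-fold.

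Of the 30 other carriers 2 (6.67%) had an unadjusted p under 0.05 by edgeR, against 4.44% of all tested genes. The 2 include Slc46a1, whose direction the rule favoured, so the share is not read as above the background. The proton-coupled folate carrier Slc46a1 (chromosome 11, 78465697 to 78472059) stood at 2.51, 1.83 and 1.87 against 1.03, 0.740 and 0.679 CPM. Its groups did not overlap and its log2 difference of 1.34 (SE 0.37, interval 0.48 to 2.19, edgeR adjusted p 0.472) was the largest of all 167, at a low level. Slc46a1 met the rule only through the CD4-positive libraries, so the rule itself favoured this direction. The reduced folate carrier Slc19a1 was more abundant, at 20.4, 24 and 30.7 against 20.6, 25.2 and 18.7 CPM, and overlapped. The vesicular nucleotide carrier Slc17a9 (chromosome 2, 180725263 to 180742280), which loads ATP into vesicles, stood at 12.4, 15 and 17.6 against 21.9, 23.3 and 18.9 CPM without overlap (log2 difference -0.51, SE 0.19, adjusted p 0.885).

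The lactate carriers MCT1 (Slc16a1) and MCT4 (Slc16a3) differed in level, at 18.2 and 2.80 on the TPM scale. Slc16a1 stood at 24.6, 31.2 and 37.7 against 30.9, 32 and 33.7 CPM (log2 difference -0.05, interval -0.49 to 0.39). Slc16a3 stood at 6.73, 4.80 and 8.31 against 3.79, 4.39 and 7.39 CPM (log2 difference 0.35, interval -0.42 to 1.13). Slc44a2 was the most abundant of the class and varied little, at 368, 325 and 387 against 357, 353 and 420 CPM (log2 difference -0.06). The heme carrier Slc48a1 (56.1 on the TPM scale) had a log2 difference of 0.24 and overlaps Hdac7 on the opposite strand. Slc10a3 (41.1) stood at 19.0, 37.2 and 50.6 against 38.3, 35.5 and 13.5 CPM and shares exon sequence with Ubl4a on its own strand. The fatty acid carrier Slc27a1 had a log2 difference of 0.58 and Slc18a2 one of -0.74, both with overlap. The choline carrier Slc44a1 did not overlap, with a log2 difference of 0.14. Median log2 difference of the class was 0.10.

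The 5 genes that are not carriers had a median log2 difference of -0.19, and none had an unadjusted p under 0.05. Slc9a3r1, the scaffold NHERF1, stood at 175, 226 and 214 against 225, 225 and 136 CPM (log2 difference 0.07, interval -0.47 to 0.61). Slc7a6os and Slc4a1ap had log2 differences of -0.19 and -0.11, and Slc9a3r2, close to the level of the rule, one of -0.58 with an interval of -1.54 to 0.38.

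Libraries of the same group differed from each other across many of the carriers. CD4-positive replicate 1 and CD4-negative replicate 3 were the 2 lowest libraries for 69 of 167 genes (41.3%), against 24.7% of the 10843 tested genes with a mean of at least 1 CPM, and the 2 highest for 24 (14.4%), against 23.2%. They are also the 2 libraries with the low share of mitochondrial counts. Over the 10843 genes the median exon length was 5530 bases where these libraries were the 2 lowest and 3239 bases where they were the 2 highest, against 4409 bases in all. For the carriers it was 5324 and 4346 bases, against 4729 bases over all 167. The part of length and of the mitochondrial share in the pattern was not tested. The pattern was largest, among genes chosen after their values were seen, in the sodium bicarbonate carrier Slc4a7, at 13.5, 43.3 and 40.4 against 33.1, 38.4 and 14.1 CPM. The sugar phosphate carrier Slc37a1 (18.1, 32.2 and 26.8 against 35.1, 40.7 and 9.34 CPM) and the mitochondrial glutamate carrier Slc25a22 (14.9, 26.9 and 28 against 26.1, 30.5 and 12.2 CPM) had the same shape. For these genes the spread within each group was wider than the difference between group means.

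CD4-positive replicate 3 was the highest library for 72 of 167 genes (43.1%), against 18.0% of those 10843 genes, and CD4-negative replicate 3 the lowest for 64 (38.3%), against 31.6%. The median deviation of the 167 genes from their own mean was 0.18 on the log2 scale in CD4-positive replicate 3, -0.15 in CD4-positive replicate 1 and -0.17 in CD4-negative replicate 3. The 7 immature thymocyte markers summed to 147 CPM in CD4-positive replicate 3, 221 CPM in CD4-negative replicate 3 and 35.2 to 110 CPM in the other 4. Of these markers Rag1 was highest in CD4-positive replicate 3 (44.8 CPM, against 15.6 CPM in CD4-negative replicate 3), while Rag2, Dntt, Ptcra, Cd8a, Cd8b1 and Cd1d1 were highest in CD4-negative replicate 3. Their part in the pattern was not tested. These libraries bear on the count without overlap. Without CD4-positive replicate 1, 59 of 167 carriers (35.3%) had groups that did not overlap, against 24.6% of all tested genes, in either direction. Of these 59, 44 were higher in CD4-positive cells, and the share of all tested genes by direction in that fit is not given here. Without CD4-negative replicate 3 the count was 35 (21.0%), 17 higher and 18 lower, against 22.6%. It was 23 without CD4-positive replicate 3 and 24 where CD4-negative replicate 1 was left out, against 18.1% and 14.2% of all tested genes. With fewer libraries the groups overlap less often by construction, and no carrier was called in any of these fits.

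**Figure D5:**
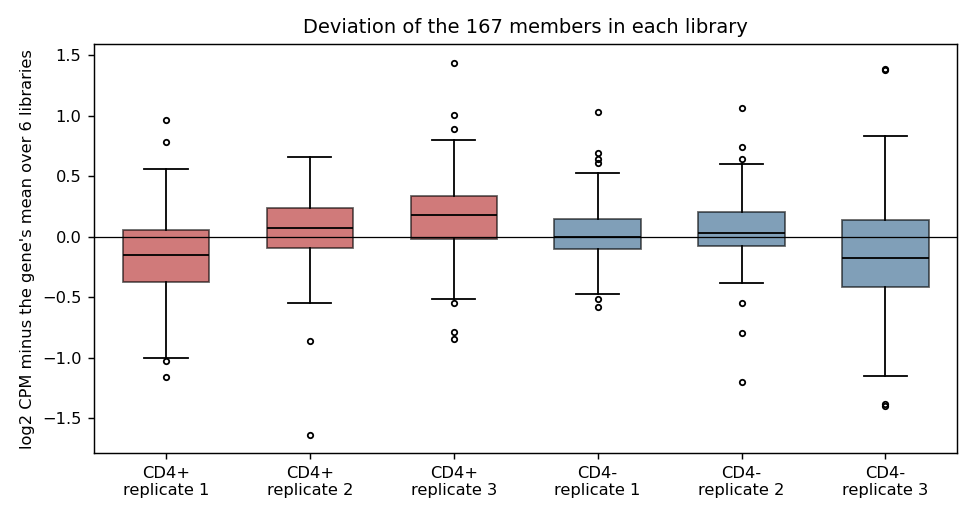
Log2 CPM of each of the 167 genes minus the gene's mean over the 6 libraries, as a box per library (line, median; box, quartiles; whiskers, to the farthest value within 1.5 times the box height; circles, values beyond). The medians lie at -0.15 and -0.17 in CD4-positive replicate 1 and CD4-negative replicate 3 and at 0.18 in CD4-positive replicate 3.

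Transporters that carry no Slc symbol were compared as a companion list, of which 33 were tested. None passed over all genes. At an unadjusted p under 0.05 stood 3 of the 33, against 4.44% of all tested genes, and 5 of the 33 did not overlap, against 9.41%. All 5 were lower in CD4-positive cells, against 4.57% of all tested genes that were lower without overlap. Atp1b1, a beta subunit of the sodium-potassium pump, stood at 55.4, 61.8 and 53.2 against 115, 115 and 92.3 CPM (log2 difference -0.92, edgeR adjusted p 0.0999). The second beta subunit in the list, Atp1b3, stood at 441, 392 and 421 against 554, 549 and 754 CPM (log2 difference -0.57, adjusted p 0.722). The organic anion carrier Slco3a1 stood at 83.6, 85.1 and 75.6 against 124, 132 and 130 CPM (log2 difference -0.66, adjusted p 0.190), and the mitochondrial pyruvate carrier subunit Mpc2 had a log2 difference of -0.32.

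Partners and regulators of carriers gave 30 tested genes, of which none passed. An unadjusted p under 0.05 was found for 1 of the 30, against 4.44% of all tested genes, and 4 of the 30 did not overlap, against 9.41%. The 1 gene was Asns, asparagine synthetase, at 2.26, 1.64 and 2.58 against 1.33, 0.685 and 0.992 CPM (log2 difference 1.11, edgeR adjusted p 0.840). Hif1a, a regulator of glucose carriers under low oxygen, stood at 94.7, 107 and 117 against 85.2, 87.5 and 78.1 CPM without overlap (log2 difference 0.34). Myc and Txnip, regulators of nutrient uptake, overlapped: Myc stood at 105, 211 and 182 against 231, 232 and 69.0 CPM, lowest in CD4-positive replicate 1 and CD4-negative replicate 3, and Txnip had a log2 difference of -0.38.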

How the data were processed

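The authors deposited 1 table of estimated counts (expected counts) per gene for the 6 libraries, not normalised. The submitters' processing notes list STAR, Picard, RSEM and mm10 (mouse) with no version or role. Per the labels' protocols, the RNeasy Plus Micro kit gave the RNA, and TruSeq Stranded mRNA libraries were read on a HiSeq4000 from both ends. Which annotation and strand setting the counting used is not given in the sources used here. Groups and replicate numbers come from the sample titles.

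Counts were rounded to whole numbers and fitted in R 4.3.3 with edgeR 4.0.16 (filterByExpr, TMM scaling, robust quasi-likelihood F test, 2-sided, with group as the only term, Benjamini-Hochberg adjustment over 12760 genes, threshold 0.05). Printed CPM are TMM-scaled, except the values of the rule at 1 CPM, which use plain library totals. A SE was derived from the F statistic and a 95% interval from it and the fit's degrees of freedom. The TPM scale uses union exon lengths of GENCODE M21 (GRCm38), in which all 167 genes were found by identifier. The total counts make 3 counts, the limit that a count of 0 allows, worth 0.0564 to 0.0741 CPM, by counting error only. The tests were checked on simulated counts.

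The members and all lists were chosen with earlier results of these data known. Named genes are, in each class, the 3 highest per length and up to 2 per direction with the smallest p, 16 genes whatever their result, the neighbours of the 1 CPM level, and genes said to be chosen after their values were seen. Genes without overlapping groups, relatives of a named gene and companion genes were also chosen after their values were seen. Alternatives were RLE and upper-quartile scaling, no filter, a mean of at least 5 CPM, a replicate block, the naming scheme as a batch term, replicates 1 and 2 alone, DESeq2 1.42.0, limma-voom (limma 3.58.1), each library left out, members at 5 CPM and all testable solute carriers. Some genes are not reported here.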

Additional observations from a re-analysis of the deposited data

How the results depend on the processing

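No expressed solute carrier was called under any alternative but DESeq2, which called 1. The count of all genes called, 27, was 67 without the filter, 11 with the naming scheme as a batch term, 9 with replicates 1 and 2 only, 162 with DESeq2 and 0 to 44 over the fits that leave out 1 library, with 44 without CD4-negative replicate 3 and 0 in each of the other 5 (439 to 585 genes at an unadjusted p under 0.05 in those 5). With the replicate number as a block it was 0 (531 at an unadjusted p under 0.05 by edgeR), with adjusted p of 0.115 for Cd4 and 0.0558 for Ccr4. Deviations from the group means correlated by -0.08, 0.34 and 0.04 for replicates 1, 2 and 3, which does not show that same-numbered libraries vary together. Same-numbered libraries do share the Y-linked transcripts (replicate 1) and the naming scheme (replicate 3), and the labels do not say that a number marks a shared source. With the naming scheme as a batch term the adjusted p of Cd4 was 0.0532. The 15 carriers without overlap became 49 (29.3%) with replicates 1 and 2 only, against 36.7% of all tested genes. Over the fits that leave out 1 library the count was 19 to 59, and the share of all tested genes without overlap changed between those fits too. The class medians over those fits were 0.068 to 0.26 for amino acid carriers and -0.30 to -0.051 for genes that are not carriers, and the median of all 167 was 0.00 to 0.15. With replicates 1 and 2 only the log2 difference changed sign for Slc25a5 (-0.016), Slc38a2 (-0.20), Slc11a2 (-0.32), Slc4a1ap (0.10), Slc10a3 (-0.39), Slc7a6os (0.0201), Slc7a5 (0.18), Slc39a1 (0.30) and Slc48a1 (-0.11). It also did so without CD4-negative replicate 3 for Slc7a6os (0.0391, from -0.30 over the fits that leave out 1 library), Slc7a5 (0.23, from -0.25) and Slc39a1 (0.29, from -0.20), and without CD4-positive replicate 3 for Slc48a1 (-0.059, to 0.46); the cause was not tested. Of the values of single named genes 692 moved by less than their SE, 7 by more in the same direction and 13 changed sign, and Slc41a2 alone passed the threshold, with DESeq2. Depth leaves levels up to 0.0564 to 0.0741 CPM undetectable where a carrier had no count, by counting error only.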

Other observations

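Ratios of related carriers within a library, per length, were chosen after their values were seen, and 4 were computed. Slc2a3 over Slc2a1, the 2 main glucose carriers, was 0.755, 0.882 and 0.898 in the CD4-positive libraries and 0.632, 0.611 and 0.446 in the CD4-negative ones. The groups did not overlap, and the exact permutation test (2-sided) gave p = 0.1, or 0.2 adjusted over the 4 ratios. Any ratio without overlap gives this p of 0.1, the smallest that 3 against 3 libraries allow. As the ratios were picked with their values known, the p adds nothing to the description, and the adjustment leaves out pairs not picked. Slc41a2 over Slc41a1 was 0.679, 0.419 and 0.398 against 0.847, 0.714 and 1.64, also without overlap and with the same exact p. Slc41a2 did not overlap by itself, so this ratio adds little to it. The ratio of 1.64 belongs to CD4-negative replicate 3, where Slc41a1 was lowest (12.8 CPM). The ratio of the ADP/ATP exchangers, Slc25a5 over Slc25a4, was 3.40, 4.70 and 5.62 against 3.96, 3.72 and 2.49 (exact permutation p = 0.3). The ratio of the CD98 chains, Slc3a2 over Slc7a5, was 1.81, 4.15 and 2.70 against 2.60, 3.70 and 1.47 (exact permutation p = 0.7), and its groups overlapped. A ratio shows unequal levels and not which of its genes differs.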
